A study of Mus musculus with 2 samples.

Results

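Gm25301 (ENSMUSG00000093026.1) is a predicted microRNA gene whose counts, in newborn mouse skeletal muscle, lay almost wholly on the strand opposite to its annotation, where the gene Mir378a is placed. It is 1 of 1973 microRNA rows analysed here. It was chosen from earlier results of these data for its high opposite-strand count, so its counts and rank are given as a description, without a test. The study sequenced short RNA (under 30 bases) of skeletal muscle from B6NCrl mice at postnatal day 0, with no treatment or allele named. The 1 group holds 2 libraries, each from a portion of an organ of 1 pup, of unrecorded sex. Both carry the same donor record, so the spread between them may not be a spread between pups. The tissue is a mixture of cells, and more cells of a type and more RNA per cell cannot be told apart in it.

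A microRNA is cut from a hairpin in a longer transcript and, as a short single strand, guides repression of messenger RNAs that pair with its seed near the 5′ end. A hairpin read from the other strand of the DNA can also fold, so prediction programs may place a gene on either strand. Mir378a lies in the gene of PGC-1β (Ppargc1b), a coactivator of mitochondrial and fatty acid metabolism, and its microRNA has been studied as a regulator of energy metabolism in muscle, liver and brown fat.

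In GENCODE M21 (GRCm38, the same assembly as mm10) Gm25301 spans chr18:61397813-61397925 on the plus strand, 113 bases. Mir378a spans chr18:61397835-61397900 on the minus strand, 66 bases, which leaves 22 bases of Gm25301 on its left and 25 on its right. Mir378a is on the strand of Ppargc1b and Gm25301 is antisense to it. No exon of Ppargc1b overlaps either, and both lie in intron 1 in all 3 annotated transcripts of the host. The hairpin begins 2389 bases after the end of exon 1. Mir378a itself was not among the 1973 rows analysed here, and the reads on its strand were therefore counted only in the opposite-strand column of the Gm25301 row. The counts do not show where within the 113 bases a read lay, nor from which arm of the hairpin it came.

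**Figure D1:**
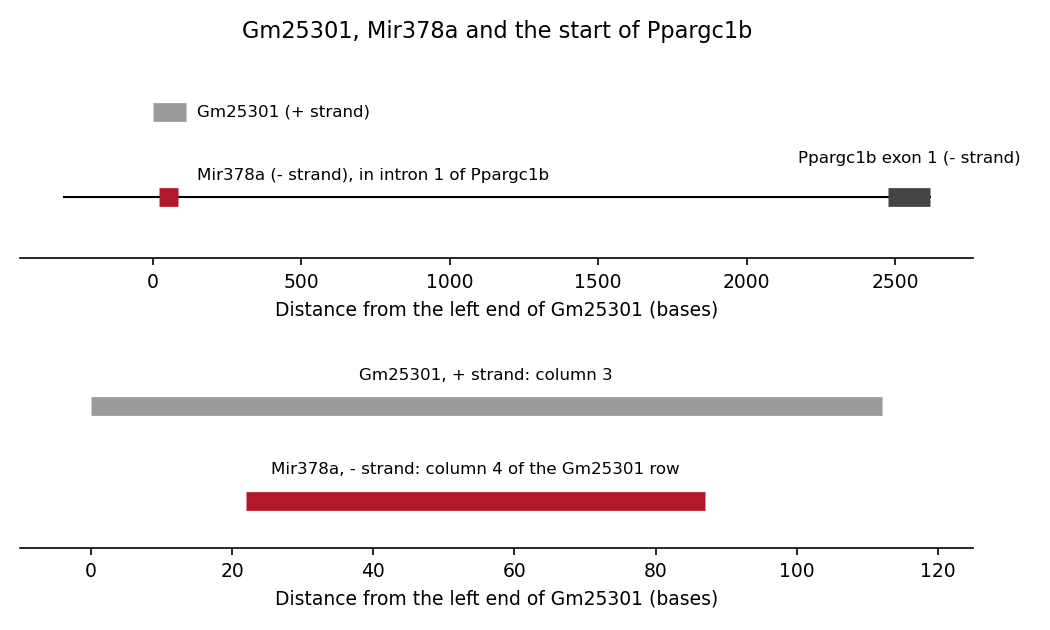
Positions of Gm25301 (grey, plus strand), Mir378a (red, minus strand) and exon 1 of Ppargc1b (black, minus strand), as distance in bases from the left end of Gm25301. The upper panel shows Mir378a 2389 bases after exon 1, and the lower panel shows its 66 bases inside the 113 bases of Gm25301.

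The arrangement can be seen in letters at Gm24321, another row of this kind, shown because it is short and its partner's mature forms are in the RefSeq table (GRCm38.p6). Gm24321 lies on the minus strand at chr12:109743158-109743237, opposite Mir409. Its capitals mark the bases that pair exactly with the mature forms of miR-409, so a read of either form aligned to the plus strand here. In the mature forms the capitals mark the seed, bases 2 to 8.
Gm24321: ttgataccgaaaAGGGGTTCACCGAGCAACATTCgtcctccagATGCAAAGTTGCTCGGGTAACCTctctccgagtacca
mmu-miR-409-5p: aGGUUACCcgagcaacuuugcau
mmu-miR-409-3p: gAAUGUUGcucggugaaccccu
The family of miR-378 has further members elsewhere, and miR-378d at chr10:126710355-126710376 on the minus strand is shown for its seed, CUGGCCU.
mmu-miR-378d: aCUGGCCUuggagucagaaggu
The seed of miR-378c is CUGGACU and that of miR-378b, whose annotated form starts at another base, is UGGACUU.

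The libraries held 16398945 reads (replicate 1) and 21037937 reads (replicate 2). Of these, 8911891 and 12273128 fitted 1 place and fell in a microRNA row on either strand, and this total is the scale of every CPM (counts per 1000000 of that total) below. A count of 3 equals 0.337 CPM in replicate 1 and 0.244 CPM in replicate 2. Intervals cover counting error only. The opposite-strand column held 955977 and 1456833 counts, 10.7% and 11.9% of the counts on both strands. No read was set apart as fitting more than 1 row.

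The Gm25301 row held 456978 opposite-strand counts in replicate 1 and 747199 in replicate 2. On its annotated strand it held 1 count in replicate 1 and 0 in replicate 2. Both libraries were thus read on the strand of Mir378a alone, apart from a single read. The annotated-strand share was 2.19e-04% in replicate 1 (95% exact Clopper-Pearson interval 5.54e-06% to 0.00122%). In replicate 2, with 0 of 747199 counts, 3 counts would be a share of 4.01e-04%, and the exact upper limit was 4.94e-04%.

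The level on the opposite strand was 51277 CPM in replicate 1 and 60881 CPM in replicate 2, a mean of 56079 CPM ± 6791 (SD, n = 2). As a share of the counts on both strands this was 5.13% (exact interval 5.11% to 5.14%) and 6.09% (6.07% to 6.10%). The difference between the libraries is far wider than either counting interval, so counting error made up little of the SD. Of all sequenced reads, Gm25301 took 2.79% and 3.55%.

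This row alone held 47.8% (47.7% to 47.9%) of all opposite-strand counts in replicate 1 and 51.3% (51.2% to 51.4%) in replicate 2. A table of annotated-strand counts leaves such reads among those with no gene. In that column 1218675 and 1757043 uniquely placed reads had no gene, and opposite-strand counts of microRNA rows made up 78.4% and 82.9% of them. Gm25301 by itself accounted for 37.5% and 42.5% of the reads left without a gene.

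Levels are counts and are not scaled to length, since the tables do not give the length of the RNA that was read, so the order below is an order of counts. With each strand of a row taken as its own entry, 385 entries had at least 10 counts in both libraries, 20 of them on the opposite strand. Gm25301 ranked 2 by mean level, 3 in replicate 1 and 2 in replicate 2. Mir206, a microRNA made in skeletal muscle, stood above it with 95650 and 106364 CPM, 1.87-fold and 1.75-fold the level of Gm25301. The next below by mean was Mir487b of the imprinted Dlk1-Dio3 domain, with 48762 and 57881 CPM.

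Gm25301 exceeded Mir487b 1.05-fold in each library. The difference of means was smaller than the SD of either entry, but both were higher in replicate 2, so that SD does not measure the spread of their ratio. Mir411, of the same domain, had 44097 and 50672 CPM, and Mir381 had 43227 and 45693. Mir335, hosted by the imprinted gene Mest, had 51858 CPM in replicate 1, above Gm25301 there, and 35172 in replicate 2. The place of Gm25301 below Mir206 therefore held in both libraries, while its order against Mir335 changed between them.

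**Figure D2:**
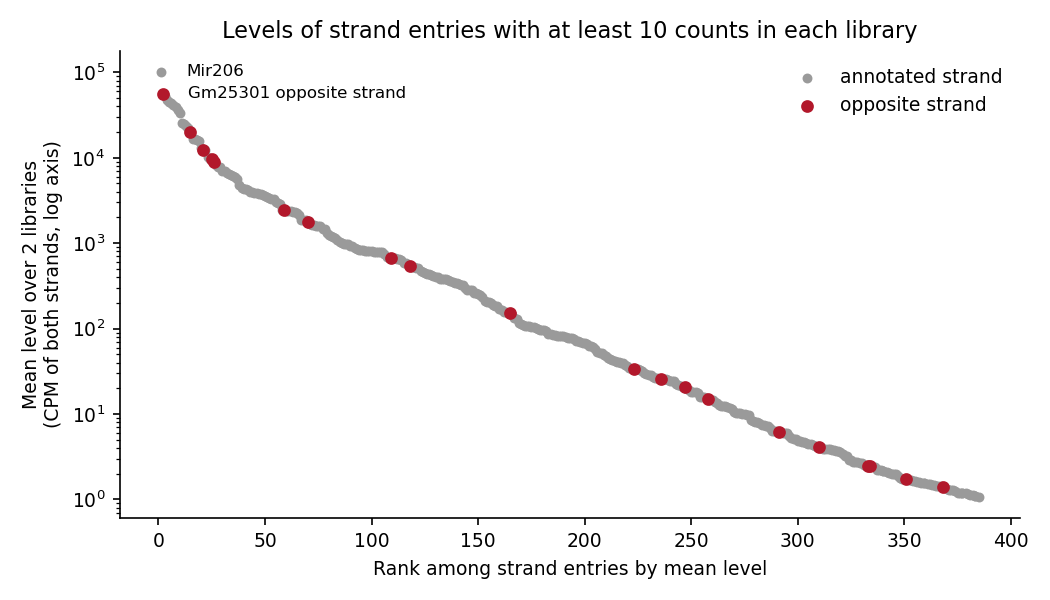
Mean level over 2 libraries (CPM of both strands, log axis) of 385 strand entries by rank, with annotated-strand entries in grey and opposite-strand entries in red. Gm25301 read from the opposite strand is second to Mir206, and the other 19 red points spread down the range.

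To see how usual such a row is, the share of counts on the opposite strand was taken in the 375 rows with at least 10 counts on both strands together in each library. Over 50% of counts lay on the opposite strand in both libraries in 12 rows, 3.20% of those tested, Gm25301 included. A microRNA gene is annotated on the other strand in GENCODE M21 for 25 of the 375 rows, and all 12 are among them (48.0%). Of the 350 rows without such a gene, 0 passed (0%). With a minimum of 1 count, 16 of 604 rows passed, 2 of them without a known gene on the other strand, Mir2861 and ENSMUSG00000099265.1 (not matched to GENCODE M21), and the 4 added rows had at most 6 counts in a library.

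The split of the reads restates this one, since the 12 rows held 99.9% of all opposite-strand counts in each library. Gm25301, chosen for its count, alone gave 456978 and 747199 of them. The 25 rows with a gene on the other strand, Gm25301 included, held 955814 and 1456674 opposite-strand counts, while the 350 others held 141 and 131. Their median opposite-strand shares were 10.3% and 7.16% with such a gene and 0% without one. The median with such a gene is the value of Mir486, which lies between the 12 rows over 50% and the rows of lower share, so it describes no typical row. Among 172 rows with at least 1000 counts in each library, the less read strand held a median of 0% and at most 2.31% in replicate 1 and 0.963% in replicate 2. The single annotated-strand read of Gm25301 lies in that low range.

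**Figure D3:**
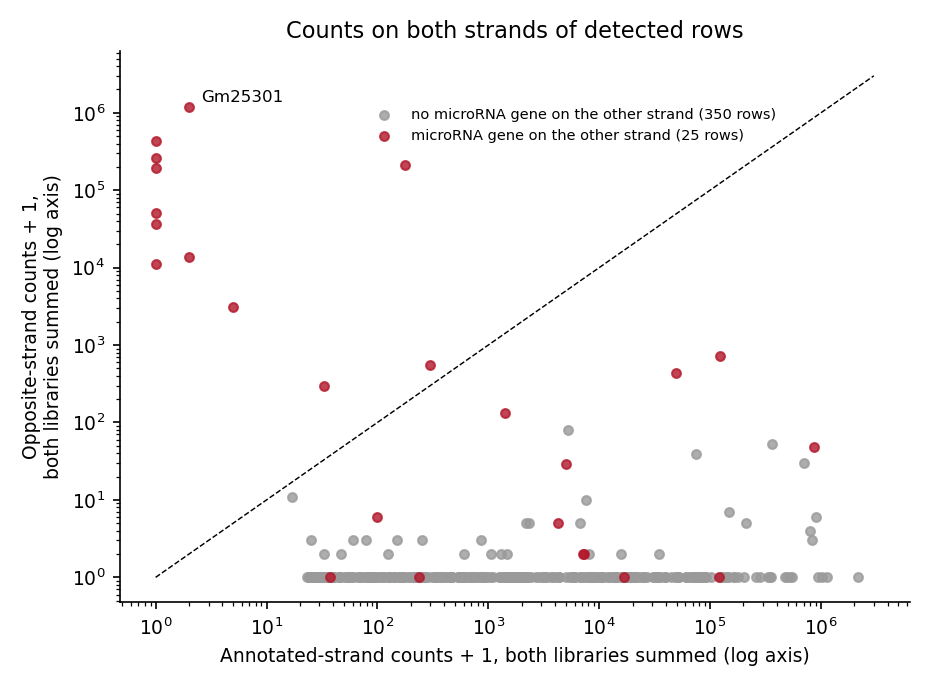
Annotated-strand against opposite-strand counts plus 1, summed over both libraries, on log axes, for 350 detected rows without (grey) and 25 with (red) a microRNA gene on the other strand. The 12 rows above the dashed line of equal counts are all red, and Gm25301 is the highest of them.

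The gene on the other strand was not among the rows analysed here for any of the 12, nor for the other rows that have one (0 of 32 in all). The 4 rows nearest to Gm25301 in level lie in the Dlk1-Dio3 domain on chromosome 12, whose microRNAs are made from the maternal chromosome. Gm25252, opposite Mir376a, had 21053 and 19535 CPM on the opposite strand. Gm24321, opposite Mir409 and printed above, had 11864 and 12708 CPM. Mir299b, opposite Mir299a, had 9362 and 10216 CPM.

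Gm25750, opposite Mir380, had 7444 and 10285 CPM. These 4 rows together held 46.4% and 44.4% of all opposite-strand counts, and with Gm25301 94.2% and 95.7%. Gm25301 exceeded Gm25252, the next of the opposite-strand entries, 2.44-fold in replicate 1 and 3.12-fold in replicate 2. Each of the 12 rows but Mir3074-1 and Mir1b held over 99% of its counts on the opposite strand in both libraries.

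The rows that follow stand opposite microRNAs of other kinds. Gm25927, opposite the let-7 family gene Mirlet7e, had 2545 and 2335 CPM. Gm24083, opposite Mir191, had 1997 and 1515 CPM, and Mir142b, opposite the blood-cell gene Mir142, had 820 and 512. On this scale all 3 were higher in replicate 1, unlike Gm25301, although with the library scaling used below (TMM) the log2 ratio of Gm25927 was -0.14.

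Mir497b, opposite the cell-cycle linked Mir497, had 604 and 474 CPM. Gm24111, opposite Mirlet7f-1, had 171 and 129 CPM. At the low end Mir3074-1, opposite Mir24-1, had 25.1 and 26.6 CPM, with 59.1% and 69.7% of its counts on that strand. Mir1b, opposite the muscle gene Mir1a-2, had 21.5 and 8.56 CPM, with 91.4% and 88.2%. By mean level the 12 rows range over 3726-fold, with Gm25301 at the top in both libraries.

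**Figure D4:**
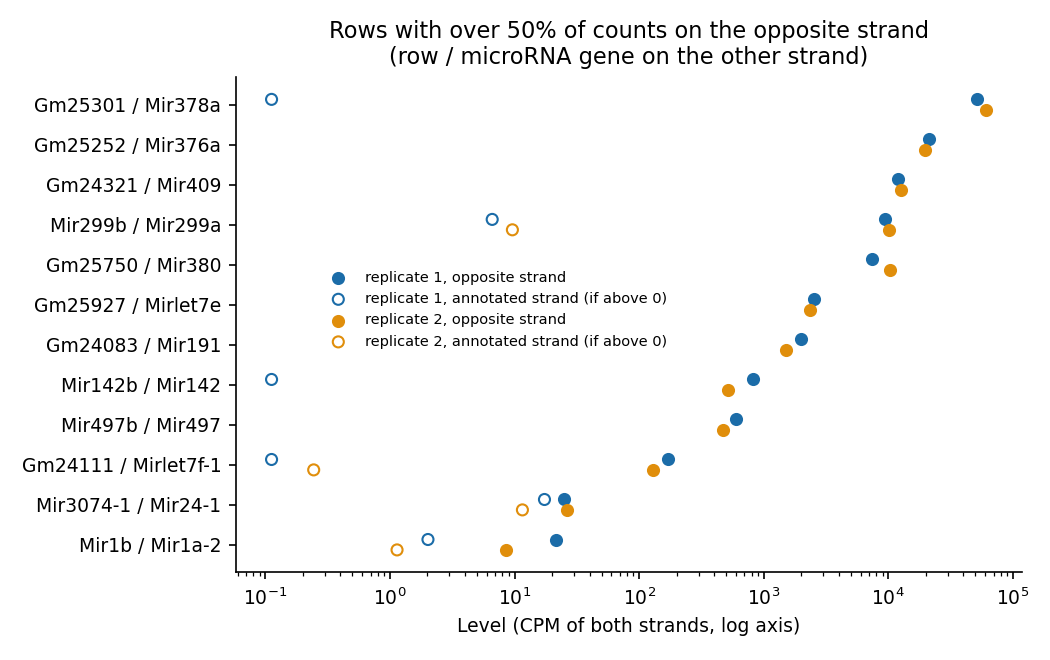
Levels (CPM of both strands, log axis) of the 12 rows read mostly from the opposite strand, each named with the gene on its other strand, with filled points for opposite-strand and open points for annotated-strand levels above 0. Blue is replicate 1 and orange replicate 2, and Gm25301 has the highest filled points, 51277 and 60881 CPM.

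The authors' tables keep multiply placed reads out of every gene, and these were 28.01% of reads in replicate 1 and 26.9% in replicate 2. A gene whose sequence recurs elsewhere can hold too few counts for that reason. Of the 96 windows of 18 bases in Gm25301, 3 recur in another microRNA row, in Mir378b and Mir378c. The longest stretch that the Mir378a hairpin shares with another family member is 20 bases with Mir378c, 19 with Mir378b and 15 with Mir378d. Short reads of miR-378a that end within the shared stretch can fit more than 1 place and would then be missing from the count of Gm25301, while reads from the bases beside the hairpin would be included. In 8 of the 12 rows read mostly from the opposite strand 0 windows recur in another microRNA row. The search covered microRNA rows only, so it does not show whether a window recurs elsewhere in the genome. GC content was 60.2% in Gm25301 against 35.8% to 64.1% in the other 11.

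The other rows of the miR-378 family were low and read from their annotated strand. Of the 4 genes listed, Mir378b, Mir378c and Mir378d were among the rows, and all 3 had 0 opposite-strand counts. Mir378d had 650 and 1140 counts, or 72.9 and 92.9 CPM. Mir378c had 281 and 583 counts, or 31.5 and 47.5 CPM. Mir378b had 35 and 69 counts, or 3.93 and 5.62 CPM.

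Together the 3 genes held 966 and 1792 counts. The opposite-strand count of Gm25301 was 473-fold and 417-fold that sum, so nearly all family counts that fit 1 place came from the Mir378a locus. Mir378c and Mir378b share the most sequence with Mir378a and how many reads of the family were multiply placed is not known from the tables.

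Between the libraries, Gm25301 was lower in replicate 1 after trimmed-mean (TMM) scaling of library sizes, with a log2 ratio of replicate 1 over replicate 2 of -0.51 (95% exact counting interval -0.52 to -0.51). With library totals in place of TMM the ratio was -0.27. The median ratio of 374 detected rows was 0.01 under TMM and 0.26 under library totals. Of these rows, 9.09% had a lower ratio than Gm25301 under TMM. A larger absolute ratio was found in 102 (27.3%), and the median absolute ratio was 0.31. The ratio describes these libraries and compares no conditions.

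All 3 other family members were also lower in replicate 1, beside 47.9% of the 374 detected rows under TMM. Their log2 ratios were -0.61 for Mir378d (interval -0.75 to -0.47), -0.86 for Mir378c (-1.07 to -0.65) and -0.78 for Mir378b (-1.41 to -0.17). They stayed below 0 under library totals, where 28.3% of the rows did. For Mir378b, with 35 and 69 counts, the interval would then include 0. Library totals raise each ratio by more than the distance of its upper limit from 0. Of the other 11 rows read mostly from the opposite strand, 6 were below 0, with ratios from -0.73 for Gm25750 to 1.07 for Mir1b.

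**Figure D5:**
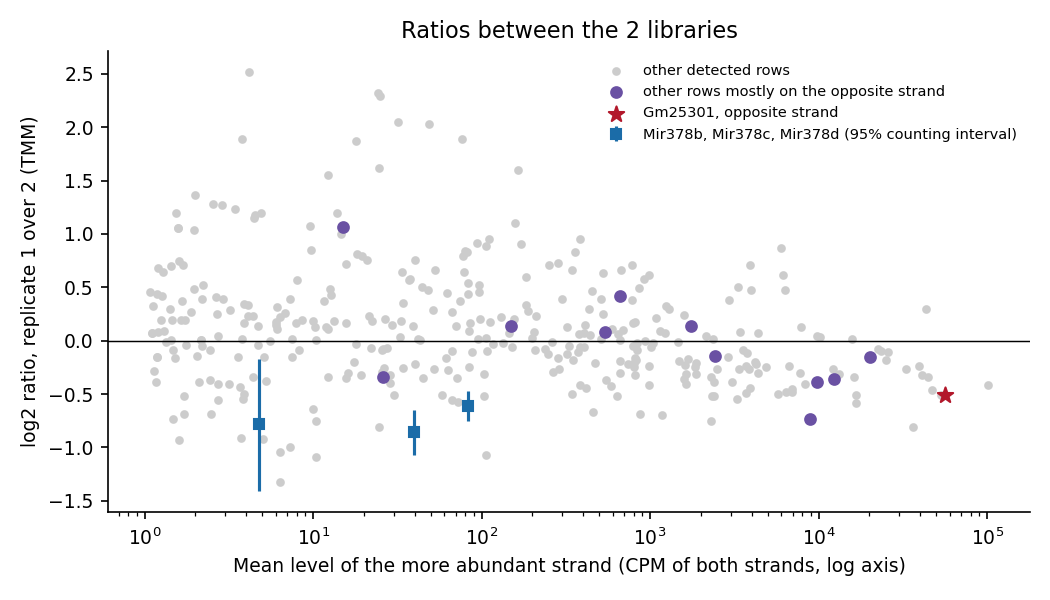
Log2 ratio of replicate 1 over replicate 2 after TMM scaling against the mean level of the more abundant strand (CPM, log axis) for 374 rows. The star is Gm25301 at -0.51, blue squares with 95% counting intervals are Mir378b, Mir378c and Mir378d, and purple points are the other 11 rows read mostly from the opposite strand.

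Against other microRNAs of muscle, Gm25301 was second to Mir206 and far above the rest of them in these counts. The list of muscle-specific microRNAs (myomiRs) summed to 96478 and 107175 CPM over the 7 of 8 genes among the rows, 6 of them detected on the annotated strand, and Gm25301 equalled 0.531 and 0.568 of that sum. Mir133b, made beside Mir206, had 751 and 725 CPM, so Gm25301 was 68.3-fold and 83.9-fold higher. Mir486 had 59.7 and 72.9 CPM and Mir1a-1 8.98 and 5.70 CPM. Mir133a-1 had 5.27 and 4.89 CPM, while Mir133a-2 and the annotated strand of Mir1b were under 2.1 CPM in both libraries. Several of these genes have near-identical copies, and all counts, those of Gm25301 included, hold only reads that fit 1 place, so the folds hold for such reads alone.

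A second list held 12 microRNAs that, like Mir378a, lie in introns of a host gene. Whether they were made with the host was not tested. The hosts include genes for lipid metabolism, growth and contraction, and others. All 12 microRNAs were detected, and together they held 77514 and 57467 CPM. Gm25301 was 0.662-fold that sum in replicate 1 and 1.06-fold in replicate 2, and Mir335 was its highest member. Mir26b, in Ctdsp1, had 17356 and 14303 CPM, and Mir483, in Igf2, had 6724 and 6617 CPM.

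Members in contraction genes were lower than Mir483. Mir208b, in the slow myosin gene Myh7, had 654 and 672 CPM, Mir499, in Myh7b, 486 and 389, and the cardiac Mir208a, in Myh6, 13.8 and 10.7. Of the members in genes of lipid and coenzyme A metabolism, Mir107, in Pank1, had 245 and 174 CPM and Mir33, in Srebf2, 92.1 and 82.4. Mir103-2 had 20.2 and 7.33 CPM and Mir103-1 1.91 and 0.978. Outside that group, Mir26a-2 had 55.8 and 32.7 CPM and Mir26a-1 6.84 and 5.13. Both pairs are near-identical copies. Of the list, 3 of 12 were lower in replicate 1 under TMM (median ratio 0.13) and 1 of 12 under library totals, beside 47.9% and 28.3% of all 374 rows. Gm25301 was lower in replicate 1 under either scaling.

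The labelled tissue was checked against its markers, and other cell types were read the same way because miR-378a is also known from brown fat, heart and liver. The 8 skeletal muscle markers summed to 97556 and 108163 CPM over the 7 genes among the rows, nearly all from Mir206. The 6 brown fat markers summed to 1283 and 1082 CPM, with 5 of 6 detected and 0 at zero counts, led by Mir455 (847 and 789 CPM). That list also holds genes of cartilage and skin. The cardiac marker Mir208a had 13.8 and 10.7 CPM and the 3 liver markers summed to 147 and 200 CPM. Gm25301 was 40.0-fold and 56.3-fold the brown fat sum.

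Of these lists, the endothelial one, a single gene, came nearest to the level of Gm25301 in both libraries. The endothelial Mir126a had 40160 and 41798 CPM, and the smooth muscle genes Mir143 and Mir145a summed to 28149 and 25123 CPM. Erythroid genes summed to 520 and 252 CPM, and the 2 of 4 leukocyte genes among the rows to 512 and 395, or to 1332 and 907 with the opposite strand of Mir142b, where Mir142 lies. Like Gm25301, the skeletal muscle and liver sums and Mir126a were higher in replicate 2, while the brown fat, smooth muscle, erythroid and leukocyte sums and Mir208a were higher in replicate 1. Under TMM the brown fat and smooth muscle sums turned to log2 ratios of -0.02 and -0.10, and the others kept their direction. The muscle sum followed Mir206, and its members did not move together. By CPM, Mir208b and Mir133a-2 were also higher in replicate 2. Mir133b (751 and 725 CPM), Mir499 (486 and 389), Mir1a-1 and Mir133a-1 were higher in replicate 1. Under TMM 5 of the 7 muscle rows had log2 ratios below 0, among them Mir133b (-0.21) and Mir133a-1 (-0.15). Mir499 (0.06) and Mir1a-1 (0.39) stayed above 0. The counting intervals of Mir133a-1, Mir133a-2, Mir499 and Mir1a-1 included 0. Of the liver genes, Mir194-2 (25.9 and 19.0 CPM) was higher in replicate 1, and Mir122 and Mir192 were higher in replicate 2. The part of any of these cell types in the level of Gm25301 was not tested.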

How the data were processed

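Small RNA was sequenced from 2 samples of 1 group. The authors deposited, per library, raw read counts for 1973 microRNA genes in 3 columns and 4 rows that name no gene (unmapped, multiply placed, without a gene, ambiguous), which stayed out of CPM. Per the readme text deposited with the tables, the assembly was mm10 and the annotation GENCODE M4. The aligner and the counter: not given in the sources used here. In all 1973 rows both strand columns sum to the unstranded one. Which column is the annotated strand is an inference: the one taken leaves 1218675 and 1757043 reads without a gene, the other 8218612 and 11116505. Positions, symbols and genes on the other strand came from GENCODE M21 (1894 of 1973 IDs matched without version, and 10 of the 12 rows read mostly from the opposite strand had the same version). Shared windows were searched in both directions.

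No test was run, since 1 group has no comparison and the member was chosen from its values. The member and lists were chosen with earlier results of these data known. Named were Gm25301, the 9 next opposite-strand rows, the entries next to it in rank, and every list member. Mir3074-1 was added afterwards to complete the 12 rows. Exact intervals are Clopper-Pearson at 95%. TMM factors (1.09 and 0.918) came from edgeR 4.0.16 in R 4.3.3 on annotated-strand counts with at least 10 counts in each library. Ratios were checked on simulated libraries with known folds. These held counting error only, with rises and falls equally likely, so the check cannot decide between TMM and library totals. Alternatives were other totals, ranking backgrounds, scalings (DESeq2 1.42.0 size factors), count minimums of 1 and 50, a share over 90%, and each replicate left out. Python 3.11.15, pandas 2.3.3, numpy 2.4.6, scipy 1.17.1 and matplotlib 3.10.9 were used.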

Additional observations from a re-analysis of the deposited data

How the results depend on the processing

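Of 21 alternative values, 13 were classed as unchanged (within the spread or interval of the reported value where it has one), 8 moved and 0 reversed. The count of 12 rows has no spread or interval, and 16 rows (count minimum of 1) and 10 rows (share over 90%) were classed as unchanged. The level of Gm25301, 5.61% of counts on both strands, was 6.33% against the annotated-strand total and 3.17% of all reads. Its rank of 2 was 1 among opposite-strand entries alone. The log2 ratio of -0.51 was -0.27 and -0.25 under library totals of the annotated strand and of both strands, and -0.56 with DESeq2 size factors. The 12 rows read mostly from the opposite strand were 16 with a count minimum of 1, and became 0 when rows with a gene on the other strand were left out, which removes all 12 by construction. With 1 replicate at a time the level ranged from 5.13% to 6.09%, the rank from 2 to 3, the share of opposite-strand counts from 47.8% to 51.3% and the opposite-strand share of the row from 99.9998% to 100%, and the count was 12 each time. With 2 libraries, the value of either one always lies within the SD of their mean. For the level and both shares, being classed as unchanged with 1 replicate left out was therefore fixed in advance and is no sign of stability. The causes of the other shifts were not tested. No paired analysis was possible because the study has 1 group. Depth did not limit the level, but multiply placed reads and the strand inference do.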

Other observations

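A gene on the other strand did not always draw most reads of a row. In 13 of the 25 detected rows with such a gene the annotated strand led. Mir337, opposite Mir3544, had 295 and 423 opposite-strand counts beside 46734 and 75620 on its own strand. Mir3071, opposite Mir136, had 180 and 256 beside 23226 and 26333. Mir486, opposite Mir3107, had the highest opposite-strand shares of these 13, 10.3% and 7.16%. Mir30e, opposite Mir30f, had 0 opposite-strand counts beside 73454 and 46249. The choice of these rows was made with their values known.

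Of the 350 detected rows without an annotated microRNA gene on the other strand, 320 had 0 opposite-strand counts in both libraries. The keratinocyte microRNA gene Mir203 held the most over both libraries together, 55 and 25 counts, or 2.31% and 0.854% of its row. Mir7654 had the highest share, from 5 of 12 and 5 of 14 counts, too few to give a strand.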
